A study of Homo sapiens with 58 samples.

Results

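The regulatory elements (REs) around 10 genes of bone morphogenetic protein (BMP) signalling were examined for their response to SOX9 dosage in cranial neural crest cells (CNCCs). The genes encode the ligands BMP2, BMP4, BMP5, BMP7, GDF5 and GDF6 and the extracellular modulators NOG, GREM1, BMPER and CHRD. An RE belonged to a locus if its midpoint lay inside the gene body or within 100 kb of an annotated GENCODE v44 transcript start of that gene. By this rule 198 of 151457 REs were members, and each fell in 1 locus only. BMP7 held 49 of them, BMPER 27, CHRD 26, BMP4 16, GDF5 15, GREM1 15, GDF6 14, NOG 13, BMP2 12 and BMP5 11. The rule uses position only. REs of a locus share a neighbourhood and are not replicates of each other, and for 146 of the 198 the nearest start of a protein-coding gene was that of the member gene itself.

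Accessibility was measured by ATAC-seq, in which a transposase inserts sequencing adapters into open chromatin, in CNCCs made from the human embryonic stem cell line H9, which is an established line. SOX9-tagged cells carried FKBP12-F36V, mNeonGreen and V5 on both copies of SOX9, so that the small molecule dTAGV-1 directs the SOX9 protein to degradation, and WT cells carried no tag. Of the 58 samples, 42 were SOX9-tagged cells given 0, 0.5, 1.6, 5, 16 or 500 nM dTAGV-1 over 48 h, and 4 were WT cells given 0 or 500 nM over the same time. A time course of 12 samples covered both genotypes, with vehicle over 24 h or with 500 nM over 3 h or 24 h. Each of the 6 dose groups held 7 replicates, 4 of clone S9CC13 and 3 of clone S9CC47, each clone being a single edited line, and every other group held 2. The labels give SOX9 levels of 100, 77.9, 51.7, 25.8, 8.14 and 0.95% from 0 to 500 nM. All groups were maintained in medium that contained recombinant BMP2 and the GSK3 inhibitor CHIR-99021, so no group was free of added BMP. Total counts in REs ran from 22.91 M to 81.04 M per sample with a median of 45.59 M, and the median member RE held 168 counts per sample.

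The promoter REs of 6 of 6 CNCC marker genes checked (TFAP2A, TWIST1, NR2F1, MSX1, PRRX1 and SOX9) held means of 15.7 to 60.6 CPM (counts scaled to a common library total) in the 7 untreated SOX9-tagged samples. Of the pluripotency markers POU5F1 held 1.28 CPM, DPPA4 held 12.4 CPM, and NANOG had no promoter RE in the table. Of the neural markers SOX1 held 2.17 CPM and PAX6 18.1 CPM. CD3E, a T cell marker, held 2.55 CPM and APOA1, a liver marker, 5.29 CPM, while CD3D and ALB had no promoter RE. An open promoter does not show that a gene is transcribed, and the share of other cells was not tested. Accessibility in bulk is an average, so fewer cells with an open RE and a less open RE in each cell cannot be told apart.

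BMP ligands are secreted dimers that bring type I and type II serine/threonine kinase receptors together, which then phosphorylate SMAD1, SMAD5 and SMAD9. These SMADs pair with SMAD4 and act on target genes such as ID1, ID3 and MSX2. Noggin, chordin and gremlin 1 bind BMP ligands outside the cell and keep them from their receptors, whereas BMPER can restrain or promote signalling depending on context. In the face, BMP signalling takes part in neural crest induction, the patterning of the facial prominences and skeletal differentiation, and SOX9 is a transcription factor of the high mobility group family that is required for cartilage formation.

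REs are named below by locus and by the distance in kb of their midpoint from the start of the gene record, positive in the direction of transcription. SOX proteins bind short sequences related to ACAAT and ACAAAG, so the REs were searched for these letters on both strands. The windows below, read from the plus strand of hg38, lie in REs that were among the 2 largest decreases or the largest increase of their locus at 500 nM and hold such a core, leaving out GDF6 and REs that overlap untranslated regions. Of those, the 8 with the largest changes are shown. Capitals mark the letters of a core in either orientation, so that CTTTGT is ACAAAG and ATTGT is ACAAT on the minus strand. The windows lie at chr20:35364252-35364352 for GDF5 +90.4, chr20:57258285-57258385 for BMP7 +8.3, chr15:32670385-32670485 for GREM1 -47.8, chr20:57241790-57241890 for BMP7 +24.8, chr3:184351702-184351802 for CHRD -28.3, chr6:55787339-55787405 for BMP5 +88.4, chr6:55868959-55869059 for BMP5 +6.4 and chr14:53935337-53935437 for BMP4 +23.4. BMP5 +88.4 and BMP4 +23.4 are shown because they rose on depletion, the other 6 because they fell.
GDF5 +90.4: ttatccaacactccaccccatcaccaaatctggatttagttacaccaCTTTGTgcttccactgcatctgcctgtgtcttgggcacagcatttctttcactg
BMP7 +8.3: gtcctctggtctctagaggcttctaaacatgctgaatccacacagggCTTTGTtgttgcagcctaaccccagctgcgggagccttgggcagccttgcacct
GREM1 -47.8: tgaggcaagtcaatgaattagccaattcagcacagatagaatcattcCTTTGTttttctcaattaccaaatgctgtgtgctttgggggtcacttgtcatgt
BMP7 +24.8: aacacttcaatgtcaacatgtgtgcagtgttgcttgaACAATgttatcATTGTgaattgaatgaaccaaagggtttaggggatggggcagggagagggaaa
CHRD -28.3: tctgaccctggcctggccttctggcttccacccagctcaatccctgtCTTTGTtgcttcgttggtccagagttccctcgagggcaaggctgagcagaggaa
BMP5 +88.4: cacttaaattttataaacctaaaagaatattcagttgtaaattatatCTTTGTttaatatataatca
BMP5 +6.4: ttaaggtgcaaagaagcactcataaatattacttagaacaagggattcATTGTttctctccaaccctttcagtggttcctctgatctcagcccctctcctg
BMP4 +23.4: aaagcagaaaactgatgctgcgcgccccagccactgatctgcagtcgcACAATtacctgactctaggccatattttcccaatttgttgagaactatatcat

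In the BMP7 +24.8 window a pair of cores face each other with 6 bases between them. The arrangement searched for, ACAAT or ACAAA followed after 3 to 5 bases by ATTGT or TTTGT, was present in 1.03% of all REs of 501 bp and in 0 of the 152 members of that length. At least 1 core was present in 66.7% of all 501-bp REs, in 61.8% of the members of that length, in 58.1% of the 31 lower at 500 nM, in 70% of the 20 higher and in 61.4% of those not called. All 11 of the 501-bp members that were lower after 3 h held at least 1 core. The share among all 501-bp REs lower after 3 h was not counted, so whether these members differ from them was not tested. NOG -23.3 and BMP7 +21.8 hold no core. These shares are descriptions, and a match of these letters is not a measured site.

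To ask which elements depend on SOX9, the 7 samples at 500 nM, which leaves 0.95% of SOX9 by the labels, were compared with the 7 at 0 nM after 48 h. Of the 198 members, 60 passed an adjusted p of 0.05 in edgeR's quasi-likelihood test, with 38 lower and 22 higher. Members passed at 30.3%, against a background of 24.1% of all REs. The share was uneven, at 53.1% in the BMP7 locus and 25 to 40% at BMP2, NOG, BMP5 and GREM1. At BMP4, GDF5, GDF6, BMPER and CHRD it was 13.3 to 21.4%, below that background. Lower members made up 19.2% and higher members 11.1%, against 13.9% and 10.2% of all REs. The median log2 fold change was 0.01 over the members and 0.02 over all REs. In 52 of the 60, all 7 replicates moved the called way, and in 9 of the 60 the samples at 0 and 500 nM did not overlap. These counts were made over the members only, so whether they differ from those of other called REs was not tested. Without a term for differentiation 28 members passed, 9 of them in BMP7, and with the replicate as block 72 passed. The shares of all REs in these other fits are not given here, so the counts do not show whether members moved apart from other REs.

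**Figure D1:**
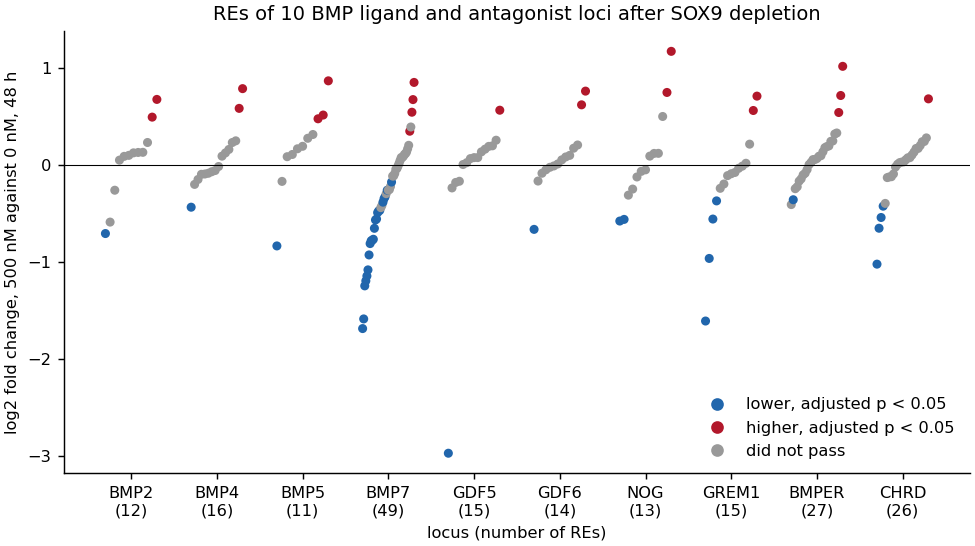
Log2 fold change in accessibility at 500 nM against 0 nM dTAGV-1 after 48 h (y axis, 7 samples each) for the 198 REs by locus (x axis), with REs that passed an adjusted p of 0.05 in blue where lower and red where higher. BMP7 holds 49 of the 198 REs and 22 of the 38 lower REs, and the GDF5 +90.4 kb RE lies lowest at -2.97.

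The lower members lay mostly in the BMP7 locus. Of its 49 REs 22 were lower and 4 higher, with a median log2 fold change of -0.26. By share 44.9% were lower and 8.16% higher, against 13.9% and 10.2% of all REs. Each of the other 9 loci, which hold fewer REs, had 1 to 4 lower and 1 to 3 higher REs. Their lower share ran from 3.7% at BMPER to 26.7% at GREM1. Their higher share ran from 3.85% at CHRD to 27.3% at BMP5. Medians of those loci ran from -0.09 at GREM1 to 0.19 at BMP5. Of the 9 members that fell by more than 1 on the log2 scale, 6 were BMP7 REs, and the others were GDF5 +90.4, GREM1 -47.8 and CHRD -28.3. Members that rose by more than 1 were NOG -23.3 and BMPER +239.3. The 138 members that did not pass had fold changes from -0.59 to 0.50.

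BMP7 encodes a ligand needed for kidney and eye development, which pairs with itself or with BMP2 and BMP4. The gene lies at chr20:57168753-57266641 on the minus strand. The most accessible of its REs near a transcript start, BMP7 +21.8 at chr20:57244580-57245080, is intronic and lies within 1000 bp of the start of an internal transcript. It ran from 7.37 through a median of 19.4 to 44.1 CPM at 0 nM and from 3.39 through 7.21 to 25.1 CPM at 500 nM. These ranges overlap, and the RE was lower in 7 of 7 replicates. The log2 fold change was -1.24 ± 0.10 (SE, n = 7 and 7) with an edgeR adjusted p of 4.89e-10. Without a term for differentiation the change of this RE no longer passed, at -1.17 and an edgeR adjusted p of 0.121.

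The 2 BMP7 REs with the largest decreases are intronic as well. BMP7 +24.8 at chr20:57241590-57242090, which holds the facing cores printed above, ran from 50.2 through a median of 81.1 to 86.6 CPM at 0 nM and from 12.75 through 25.0 to 34.6 CPM at 500 nM. The groups did not overlap, and the mean at 500 nM was 34.4% of that at 0 nM. Its log2 fold change was -1.59 ± 0.09 (SE), and its edgeR adjusted p was 4.26e-13. BMP7 +8.3 at chr20:57258044-57258544 ran from 3.79 through 10.6 to 26.6 CPM at 0 nM and from 1.51 through 2.93 to 11.7 CPM at 500 nM. All 7 replicates fell, and replicate S9CC47_R8 was the highest in both groups. The log2 fold change of BMP7 +8.3 was -1.68 ± 0.12 (SE), and its edgeR adjusted p was 5.13e-11.

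The REs around the first start of BMP7 were lower as well. The RE over that start, BMP7 +0.1, had a mean of 11.99 ± 4.78 CPM (SD, n = 7) at 0 nM and 9.465 ± 3.66 CPM at 500 nM, a log2 fold change of -0.35 ± 0.10 (SE), and its edgeR adjusted p was 0.0116. It no longer passed without S9CC13_R10 (edgeR adjusted p = 0.0543) or S9CC47_R8 (edgeR adjusted p = 0.0504). Between -1 and +26 kb 8 of the 10 REs passed, and these 8 were lower, a stretch chosen after the values were seen. Upstream, BMP7 -16.6 at chr20:57282647-57283834 ran from 55.2 to 79.7 CPM at 0 nM and from 19.9 to 37.25 CPM at 500 nM with no overlap, a log2 fold change of -1.08 ± 0.09 (SE, edgeR adjusted p = 4.1e-10). Farther out the locus also held REs that opened. BMP7 -42.5 ran from 1.23 to 1.70 CPM at 0 nM and from 2.05 to 2.93 CPM at 500 nM, a log2 fold change of 0.85 ± 0.13 (SE, edgeR adjusted p = 2.22e-05), and it is nearer to the start of SPO11, a meiotic gene, than to BMP7. BMP7 +0.1 and -16.6 were chosen after their values were seen.

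**Figure D2:**
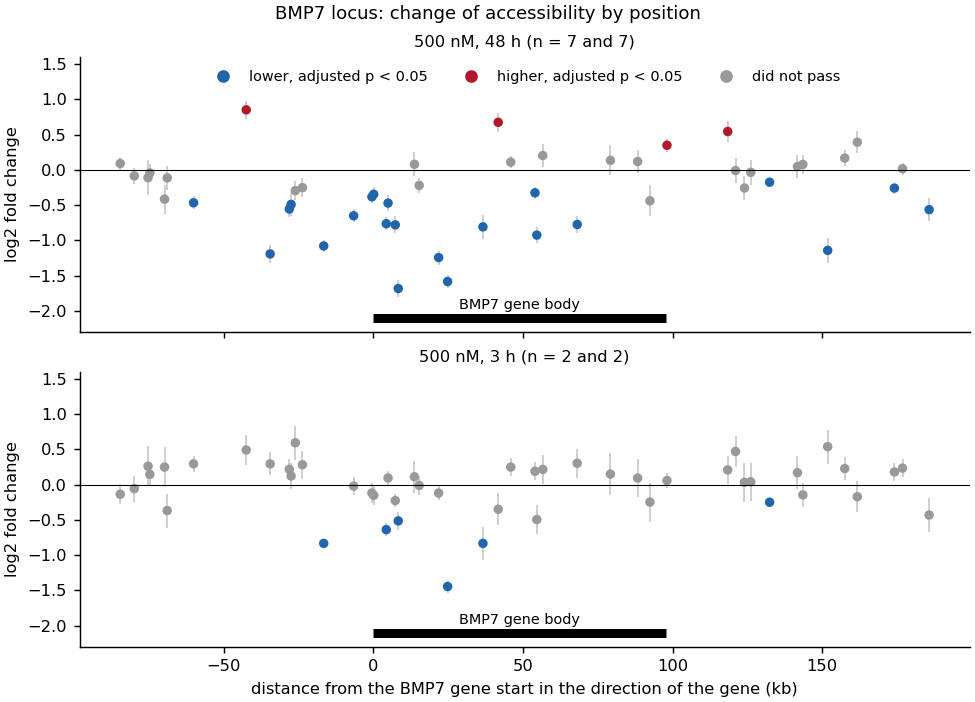
Log2 fold change with its standard error (y axes) of the 49 REs of the BMP7 locus against distance from the start of the gene (x axis) after 48 h at 500 nM (top, 7 samples each) and after 3 h (bottom, 2 samples each). Of the 22 REs that were lower at 48 h, 6 were already lower at 3 h, with BMP7 +24.8 the lowest at -1.45.

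Counts were also summed over all REs of each locus. The BMP7 sum was 494 ± 74.65 CPM (SD, n = 7) at 0 nM and 335 ± 48.0 CPM at 500 nM, lower in 7 of 7 replicates by -0.70 to -0.405 on the log2 scale. The GREM1 sum fell in 7 of 7 replicates from 63.85 ± 9.79 to 42.9 ± 5.00 CPM, with log2 ratios from -0.68 to -0.29. In each replicate most of that fall lay in GREM1 -47.8 alone, an RE inside an SCG5 intron. Depleted cells kept on average 32.6% of its untreated signal. The GREM1 sum is therefore mainly a reading of this RE and not of the whole locus. Only 6 of the 15 REs in the locus have GREM1 as their nearest coding start. Mean log2 ratios of the other 8 loci lay between -0.04 at CHRD and 0.21 at BMP5. The BMP4 sum was higher in 7 of 7 replicates, at 152 ± 23.0 CPM against 175 ± 13.9 CPM, though the lowest of its log2 ratios was 0.000481. In the 4 WT samples the mean log2 ratio of the BMP7 sum at 500 nM was -0.00387, and that of the GREM1 sum 0.03. The sums are descriptions, with no test, and the REs with most counts weigh most in them.

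**Figure D3:**
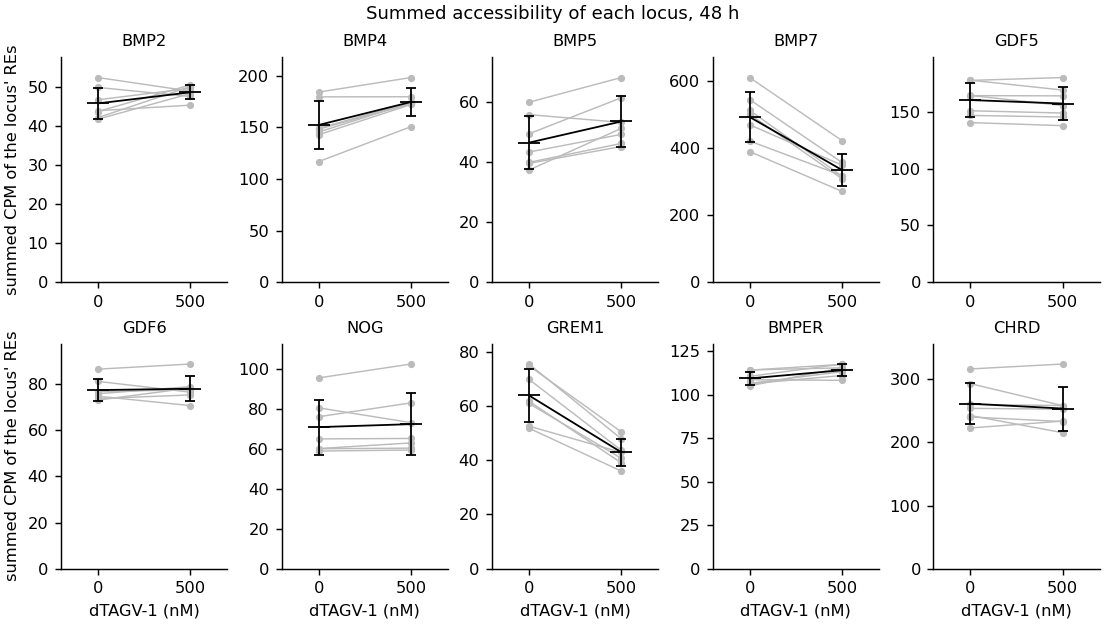
Summed CPM over the REs of each locus (y axes, each from 0) at 0 and 500 nM dTAGV-1 after 48 h (x axes), with grey lines for the 7 replicates and black bars for the mean and SD. The BMP7 and GREM1 sums fall in all 7 replicates, the GREM1 sum mostly through GREM1 -47.8.

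Among the other ligands, GDF5 had the member with the largest decrease of all. GDF5 is a ligand of joint and cartilage development, and its gene lies at chr20:35433347-35454746 on the minus strand. GDF5 +90.4 at chr20:35364091-35364591 lies in an intron of UQCC1, whose start is the nearest of a coding gene at 17115 bp. It ran from 7.04 through a median of 13.03 to 19.1 CPM at 0 nM and from 0.672 through 1.74 to 3.11 CPM at 500 nM. The groups did not overlap, and the mean at 500 nM was 13.1% of that at 0 nM. The log2 fold change was -2.97 ± 0.14 (SE), and its edgeR adjusted p was 2.74e-14. Its locus otherwise moved little. GDF5 +11.5, in an intron of GDF5, rose by 0.56 ± 0.12 (SE, edgeR adjusted p = 0.00098), and the other 13 REs did not pass.

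BMP2 and BMP4 are close relatives that act in crest induction and the outgrowth of the facial prominences. BMP4 +23.4 at chr14:53935017-53935799, beyond the 3' end of the gene, ran from 17.7 through a median of 21.2 to 37.3 CPM at 0 nM and from 30.9 through 43.7 to 57.95 CPM at 500 nM. It was higher in 7 of 7 replicates, though the groups overlap, with a log2 fold change of 0.79 ± 0.08 (SE) and an edgeR adjusted p of 2.04e-08. BMP4 -80.7 had a log2 fold change of -0.43 ± 0.16 (SE, edgeR adjusted p = 0.0485), but it passed in none of DESeq2, the RLE scaling and the fit without a term for differentiation, nor with any 1 of 6 replicates left out, S9CC13_R14 being the replicate whose removal kept it. BMP2 +43.5 fell by 0.71 on the log2 scale and BMP2 +88.3 rose by 0.68, with edgeR adjusted p of 0.00109 and 0.000525. Both are intergenic and held means of 2.73 and 1.59 CPM at 0 nM.

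BMP5, a ligand of cartilage and the outer ear, and GDF6, a ligand of joints, the skull and the eye, had REs that passed in both directions. In the BMP5 locus 1 of 11 REs was lower and 3 were higher, or 36.4% in all, and in the GDF6 locus 1 of 14 was lower and 2 were higher, or 21.4%, against the 24.1% of all REs. BMP5 +6.4, in an intron of BMP5, had means of 2.49 ± 0.865 CPM (SD, n = 7) at 0 nM and 1.41 ± 0.443 CPM at 500 nM, lower in 7 of 7 replicates with a log2 fold change of -0.83 ± 0.14 (SE, edgeR adjusted p = 8.73e-05). BMP5 +88.4, in an intron as well, rose by 0.87 ± 0.15 (SE, edgeR adjusted p = 8.32e-05). At GDF6, the RE at +13.6 in an intron fell by 0.66 on the log2 scale (edgeR adjusted p = 0.00179) with no overlap between the groups, from 1.66 to 2.35 CPM at 0 nM and from 0.925 to 1.52 CPM at 500 nM. GDF6 -12.5 rose by 0.76 ± 0.16 (SE, edgeR adjusted p = 0.000929).

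Of the antagonists, GREM1 had the largest decrease. Its gene lies at chr15:32718004-32745106 on the plus strand. GREM1 -47.8 at chr15:32669793-32670608 lies in an intron of SCG5, a chaperone of secretory granules, 2855 bp from an SCG5 start. It ran from 16.95 through a median of 27.6 to 37.2 CPM at 0 nM and from 6.48 through 9.13 to 12.75 CPM at 500 nM. The groups did not overlap, and the log2 fold change was -1.61 ± 0.09 (SE), and its edgeR adjusted p was 7.51e-13. GREM1 +55.1, in an exon of FMN1, a gene of actin assembly next to GREM1, ran from 1.62 to 3.09 CPM at 0 nM and from 0.63 to 1.59 CPM at 500 nM. It too showed no overlap, with a log2 fold change of -0.96 ± 0.16 (SE, edgeR adjusted p = 6.79e-05). GREM1 -71.5, in another intron of SCG5, rose by 0.71 ± 0.18 (SE, edgeR adjusted p = 0.00361) from a mean of 0.941 CPM.

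The locus of NOG, which encodes noggin, had the largest increase of all members. NOG -23.3 at chr17:56570129-56570629 is intergenic and ran from 1.23 through a median of 2.63 to 4.53 CPM at 0 nM and from 2.96 through 5.67 to 9.77 CPM at 500 nM. It was higher in 7 of 7 replicates, though the groups overlap, with a log2 fold change of 1.17 ± 0.11 (SE) and an edgeR adjusted p of 1.43e-08. NOG +2.3 and NOG +72.4 fell by 0.58 and 0.56 on the log2 scale, with edgeR adjusted p of 0.00788 and 0.0031. Both had groups that overlap and were lower in 7 of 7 replicates.

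BMPER +239.3, in the BMPER gene body, ran from 0.71 through a median of 1.30 to 2.16 CPM at 0 nM and from 1.64 through 2.88 to 3.91 CPM at 500 nM, and its log2 fold change was 1.02 ± 0.14 (SE, edgeR adjusted p = 2.81e-06). BMPER -88.9, in an intron of BBS9, fell by 0.36 on the log2 scale (edgeR adjusted p = 0.0269), and it did not pass when S9CC13_R10, S9CC47_R5, S9CC47_R6 or S9CC47_R8 was left out. The CHRD locus, for chordin, is gene-dense, and for 5 of its 26 REs the nearest coding start was that of CHRD. CHRD -28.3 in an intron of CLCN2, a chloride channel gene, ran from 1.89 to 4.50 CPM at 0 nM and from 0.931 to 2.34 CPM at 500 nM, a log2 fold change of -1.02 ± 0.17 (SE, edgeR adjusted p = 4.38e-05). CHRD -13.1, in an intron of POLR2H, a gene of an RNA polymerase subunit, fell by 0.65 on the log2 scale with no overlap between the groups (edgeR adjusted p = 1.09e-06). CHRD +1.7, which covers exons of both CHRD and its neighbour THPO, rose by 0.68 ± 0.11 (SE, edgeR adjusted p = 3.37e-05).

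REs at the promoters of the 10 genes passed at a share near that of REs at annotated starts in general. Of the 30 members within 1000 bp of a start of their own gene, 5 passed at 500 nM, or 16.7%, and 3 of these were lower. Of all 37377 REs within 1000 bp of a transcript start of any annotated gene 15.2% passed, against the 24.1% of all REs. Among the most accessible promoter RE of each gene, BMP7 +21.8 was the exception described above, and the other 9 did not pass. Their log2 fold changes lay between -0.08 ± 0.09 (SE) at GDF6 and 0.13 ± 0.10 (SE) at BMP2, and no edgeR adjusted p was below the 0.203 of BMP4. The RE taken for CHRD, CHRD -1.1, has its midpoint in an exon of THPO. Its nearest coding start is that of THPO, at 702 bp. At NOG the promoter RE held 17.9 ± 7.40 CPM (SD, n = 7) at 0 nM and 17.1 ± 7.17 CPM at 500 nM. At 16 nM it was lower by 0.32 on the log2 scale with an edgeR adjusted p of 0.036.

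Intermediate concentrations were then compared with the same 0 nM samples, to see how the members follow SOX9 dosage. At 16 nM 40 members passed, 23 lower and 17 higher, or 20.2% against 16.2% of all REs. At 5 nM 8 members passed, or 4.04% against 5.32% of all REs. Of these, 7 were lower, namely GDF5 +90.4, BMP7 +8.3, +24.8 and -16.6, GREM1 -47.8, and CHRD -28.3 and -13.1, and BMP4 +23.4 was higher. At 1.6 nM no member passed in edgeR against 0.0383% of all REs, and DESeq2 called 1, GDF5 +90.4. The unadjusted edgeR p was below 0.05 for 6 of the 198 members and for 7809 of all 151457 REs. At 0.5 nM 0 passed with edgeR or DESeq2, against 0% of all REs. There 5 members and 5219 of all REs had an unadjusted edgeR p below 0.05. With the replicate as block, 61 members passed at 16 nM, 15 at 5 nM and 1, GDF5 +90.4, at 1.6 nM.

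The steps of the dose series are shown by GDF5 +90.4. Its mean was 13.01 ± 4.83 CPM (SD, n = 7) at 0 nM, 12.2 ± 4.24 CPM at 0.5 nM, 10.1 ± 3.635 CPM at 1.6 nM, 5.86 ± 2.16 CPM at 5 nM, 2.955 ± 1.035 CPM at 16 nM and 1.70 ± 0.769 CPM at 500 nM. At 5, 16 and 500 nM the log2 fold change went from -1.14 through -2.13 to -2.97. BMP7 +24.8 kept more of its signal at 5 nM, with log2 fold changes of -0.31, -0.74 and -1.59 at the same concentrations. GREM1 -47.8 lay between them at 5 nM, with -0.53, -1.12 and -1.61. All 3 comparisons share the 0 nM samples.

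A Hill curve, with its limits fixed at the mean levels at 500 and 0 nM, was fitted for the 60 members that passed, and its ED50 is the SOX9 level at the midpoint. The ED50 had a median of 17.8% SOX9 over the 60 members, 15.7% for the 38 lower and 18.2% for the 22 higher. The order was the other way round, at 20.8% for 19 lower and 19.0% for 13 higher members, among those whose curve explained more than 0.5 of the variance and whose leave-one-out range was under 3 times. GDF5 +90.4 had an ED50 of 31.5%, with 30.6 to 33.0% when each replicate was left out in turn. GREM1 -47.8 had 21.0% with 20.1 to 22.5%. In the BMP7 locus the ED50 was 21.8% for BMP7 -16.6 with 19.6 to 23.7%, 13.7% for BMP7 +8.3 with 12.3 to 16.8%, 11.4% for BMP7 +24.8 with 10.7 to 12.7%, and 9.65% for BMP7 +21.8 with 8.75 to 10.7%. Within BMP7 the leave-one-out ranges of -16.6 and the other 3 REs thus did not overlap, and those of +8.3 and +24.8 did. NOG -23.3, which rose, had 10.6% with 9.11 to 13.7%. The curve explained more than 0.5 of the variance for 32 of the 60 members, and the values are descriptions with no test. In some fits the Hill exponent, the steepness of the curve, stopped at its upper limit of 10. These were BMP7 +118.4, +54.0, +4.9, +0.1 and -60.1, NOG +72.4, GREM1 -72.9, CHRD -36.7 and CHRD +36.7. Their ED50 values are part of the medians over the 60 members.

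**Figure D4:**
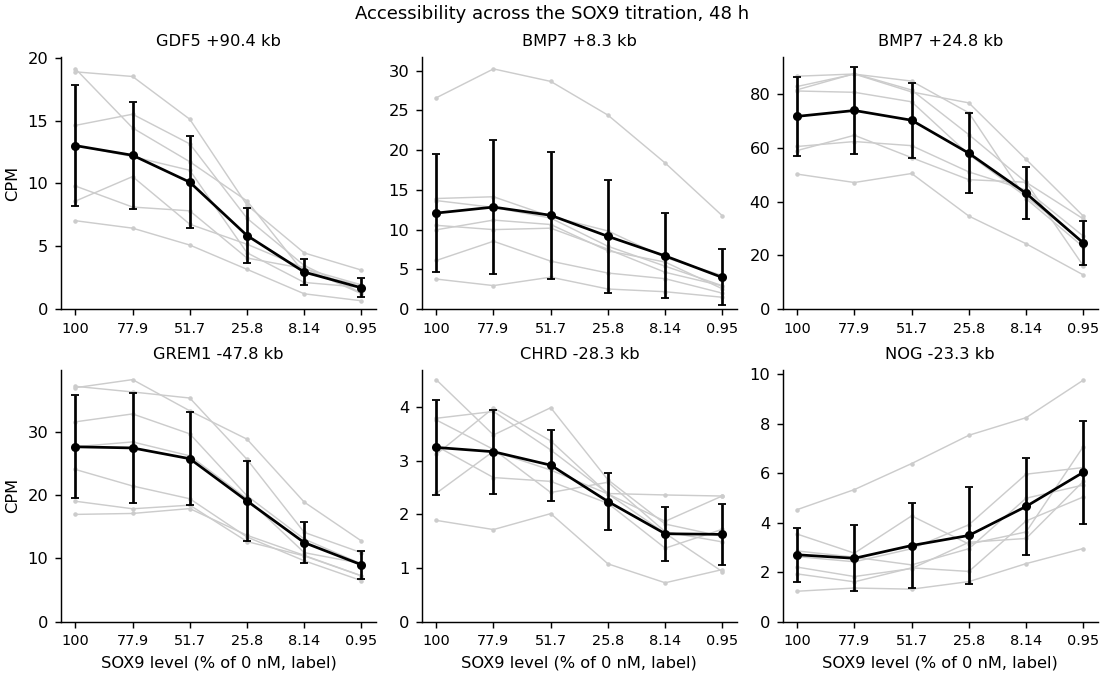
CPM (y axes, from 0) of 6 REs across the dose series at 48 h, in order of the SOX9 level given by the labels (x axes, % of 0 nM), with grey lines for the 7 replicates and black points and bars for the mean and SD. GDF5 +90.4 is at 5.86 CPM at 25.8% SOX9 from 13.01 CPM at 100%, while NOG -23.3 rises to 6.04 CPM.

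To separate early from late changes, SOX9-tagged cells were compared after 3 h and 24 h at 500 nM with vehicle for 24 h. After 3 h 17 members passed, 16 lower and 1 higher, or 8.59% against 8.34% of all REs. Of the 16 lower, 13 were also lower at 48 h. BMP7 held 6 of the 16, or 12.2% of its REs against 7.43% of all REs lower at 3 h. DESeq2 called 10 members, and the count ran from 9 to 28 when 1 time-course sample was left out, with 9 without vehicle replicate R4, 10 without the 3 h replicate R4, 11 without vehicle replicate R5, and 28 and 27 without the 24 h replicates R4 and R5. None passed without a term for differentiation. After 24 h 34 members passed, 24 lower and 10 higher, or 17.2% against 14.6% of all REs, 20 with DESeq2, 15 without vehicle replicate R4 and 1, GREM1 -47.8, without the term for differentiation. None of the 22 members higher at 48 h had passed at 3 h, where 0.912% of all REs were higher. Of the 22, 9 had passed at 24 h in the same direction, where 4.7% of all REs were higher. These overlaps between times were not counted among all REs, so whether members differ from other REs in them was not tested.

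BMP7 +24.8 was among the early REs. It held 96.6 and 60.7 CPM with vehicle, 43.7 and 19.7 CPM after 3 h and 36.25 and 17.4 CPM after 24 h. Both 3 h samples lay below both vehicle samples, with a log2 fold change of -1.45 ± 0.09 (SE, n = 2 and 2, edgeR adjusted p = 2.97e-09) at 3 h against -1.59 at 48 h. GREM1 -47.8 went from 31.55 and 27.1 CPM to 9.64 and 9.095 CPM after 3 h, a log2 fold change of -1.71 ± 0.10 (SE, edgeR adjusted p = 1.28e-09). GDF5 +90.4 went from 21.65 and 11.05 CPM to 8.28 and 3.19 CPM after 3 h and 4.87 and 1.62 CPM after 24 h. Its log2 fold change was -1.65 ± 0.15 (SE, edgeR adjusted p = 1.89e-07) at 3 h, -2.47 at 24 h and -2.97 at 48 h.

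At the most accessible BMP7 promoter RE the fall passed the test at 24 h and not at 3 h. BMP7 +21.8 held 41.7 and 6.64 CPM with vehicle, 45.4 and 5.35 CPM after 3 h and 25.1 and 4.13 CPM after 24 h. At 3 h its log2 fold change was -0.12 ± 0.10 (SE, edgeR adjusted p = 0.661), and at 24 h it had fallen by 0.77 on the log2 scale (edgeR adjusted p = 3.75e-05). BMP7 +8.3 had a log2 fold change of -0.51 ± 0.12 (SE, edgeR adjusted p = 0.01) at 3 h and -1.24 at 24 h. Whether these courses differ between REs was not tested. NOG -23.3 was at 0.23 on the log2 scale after 3 h (edgeR adjusted p = 0.692) and rose by 1.197 at 24 h (edgeR adjusted p = 0.000449). CHRD -36.7, chosen after its values were seen, was the only member higher at 3 h, at 0.49 (edgeR adjusted p = 0.0144), and it was lower at 48 h, at -0.54 (edgeR adjusted p = 0.000661).

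WT cells show what dTAGV-1 does without the tag. In edgeR no member passed in WT cells at 3 h, 24 h or 48 h, against a background of 0% of all REs each time. DESeq2 called 0 as well at each time. The unadjusted edgeR p was below 0.05 for 2, 6 and 3 of the 198 members. Of all 151457 REs it was so for 3656, 4642 and 3973. At 24 h, 2 members passed in WT cells when the 3 h replicate R5 was left out, 4 without the 24 h replicate R5 and 1 without the 3 h replicate R4, which also gave 2 at 3 h. These were BMP7 +68.1, +151.8 and -34.5 and CHRD -36.7 at 24 h and BMP4 +2.0 and CHRD -17.5 at 3 h, all lower, and named after their values were seen. BMP7 +24.8 held 100.8 and 74.2 CPM in WT cells with vehicle and 97.5 and 73.7 CPM after 3 h. GREM1 -47.8 held 32.0 and 31.9 CPM in WT cells with vehicle and 32.9 and 34.7 CPM after 3 h. BMP7 +8.3 had a log2 fold change of -0.36 in WT cells at 24 h, with an unadjusted edgeR p of 0.01524 and an adjusted p of 1.

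The difference between the genotypes was tested as an interaction. At 48 h 32 members passed, 17 more negative and 15 more positive in SOX9-tagged cells, or 16.2% against 10.8% of all REs. Of these, 31 had also passed at 500 nM in SOX9-tagged cells. Both tests used the same tagged samples at 48 h, so this overlap is not independent support. With the samples of 1 WT replicate left out, the number of members that passed the interaction was 10 without replicate R8 and 19 without replicate RSh. BMP7 held 15 of the 32, or 30.6% of its 49 REs against the 10.8% of all REs. The difference was -3.20 for GDF5 +90.4, -1.68 for GREM1 -47.8, -1.67 for BMP7 +8.3, -1.56 for BMP7 +24.8 and 1.32 for NOG -23.3 on the log2 scale. Some named REs that passed at 500 nM did not pass this interaction at 48 h. In ligand loci these were BMP2 +43.5, BMP4 -80.7, BMP5 +6.4, BMP7 +0.1, GDF5 +11.5 and GDF6 +13.6. In antagonist loci they were NOG +2.3, NOG +72.4, GREM1 -71.5 and BMPER -88.9. Their WT means at 500 nM ran from 78.8% of the 0 nM mean at BMP5 +6.4 to 115% at GDF5 +11.5. At 3 h 10 members passed, or 5.05% against 5.2% of all REs, and at 24 h 12 passed, or 6.06% against 6.73%, in each case all more negative in SOX9-tagged cells. The count at 3 h ran from 5 to 12 with 1 sample left out, and was 6 without the tagged vehicle replicate R4 and 5 without the tagged vehicle R5, the tagged 3 h R5, the WT vehicle R4 or the WT vehicle R5. At 24 h it ran from 6 to 17, with 7 without the tagged vehicle R4 and 6 without the tagged 24 h R4.

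**Figure D5:**
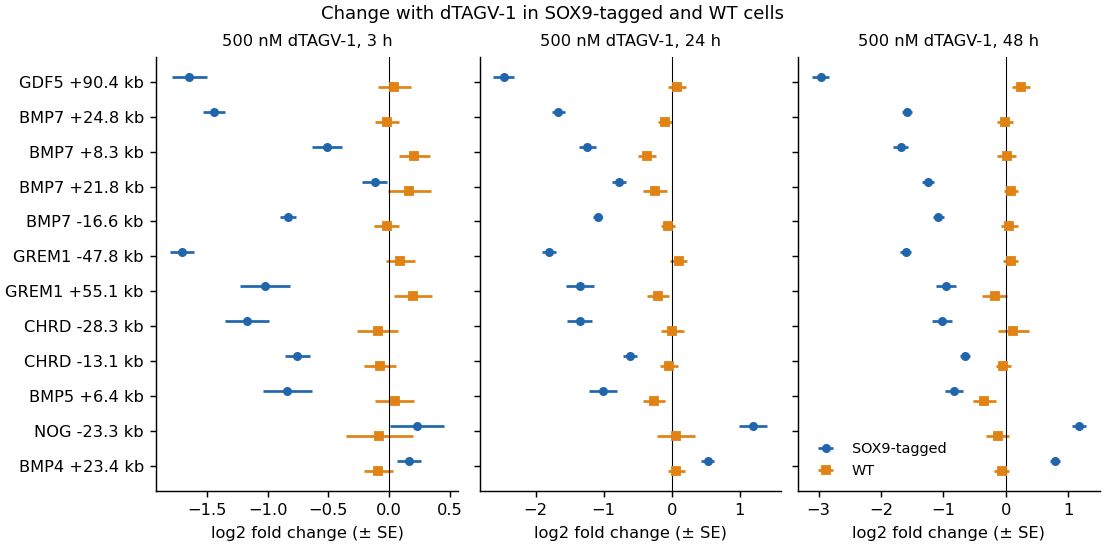
Log2 fold change with 500 nM dTAGV-1 and its standard error (x axes) for 12 REs (y axis) in SOX9-tagged cells (blue circles) and WT cells (orange squares) at 3 h, 24 h and 48 h, with 2 samples per group except 7 per tagged group at 48 h. At 3 h BMP7 +24.8, GREM1 -47.8 and GDF5 +90.4 lie at -1.45, -1.71 and -1.65 in SOX9-tagged cells.

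The same window rule was applied to other genes of the pathway for comparison at 500 nM. Around the receptor genes 21 of 132 REs were lower and 15 higher, or 27.3%, near the 24.1% of all REs, and at BMPR1B, a type I receptor of cartilage, 9 of 51 were lower and 9 higher. Around the SMAD genes 23 of 140 were lower and 23 higher, or 32.9%. SMAD5 had 9 lower and 1 higher of 26. The inhibitory SMADs differed, with 10 lower and 5 higher of 36 at SMAD6 and 2 lower and 11 higher of 37 at SMAD7. Around the ID and MSX target genes 16 of 141 were lower and 46 higher, 44% in all against the 24.1% of all REs, with a median log2 fold change of 0.16. MSX1 had 2 lower and 14 higher of 28, MSX2 had 0 lower and 9 higher of 16, and ID3 had 7 lower and 5 higher of 35. After 3 h, 7 REs of this group were lower and 4 higher, or 7.8% against 8.34% of all REs.

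Other antagonists had 16 lower and 10 higher REs of 145, or 17.9%, below the 24.1% of all REs. CHRDL2, a chordin relative picked out after the values were seen, had 5 lower and 0 higher of 11. Other ligands had 19 lower and 7 higher of 113, or 23%, which is near the background, and GDF7 had 7 lower and 0 higher of 28, or 25%. Of the 44 genes examined, BMP7 had the most lower REs, and only BMPR1B, with 51, had more REs. By share BMP7 was not set apart. Lower REs made up 44.9% at BMP7 and 45.5% at CHRDL2. The share that passed in either direction was 53.1% at BMP7, 57.1% at MSX1 and 56.2% at MSX2.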

How the data were processed

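ATAC-seq was analysed from the deposited count table, which held whole-number read counts of 151457 REs in 58 samples of 1 established cell line and its edited clones. Per the study's methods, the authors trimmed with skewer and aligned to hg38 with Bowtie2 2.4.1. SAMtools 1.10 then took out duplicates, poorly mapped reads and those of the mitochondrial genome. Summits from MACS2 2.2.7.1 that recurred across differentiations or lines were merged into 1 set of REs. The tool that counted reads is not given in the sources used here. Merging widened some REs, and 152 of the 198 members kept 501 bp.

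Counts were tested in edgeR 4.0.16 under R 4.3.3 with TMM scaling, a quasi-likelihood F test, no filter on low counts and Benjamini-Hochberg adjustment over all 151457 REs at 0.05. Differentiation batch was a covariate for the dose series and the time course. The fit of WT samples at 48 h and the tests of a difference between genotypes had the replicate, or genotype by differentiation, as block. SE is the log2 fold change divided by the root of F. CPM was scaled by TMM over the 58 samples. DESeq2 1.42.0, RLE scaling, a filter on low counts, other blocks, narrower windows and leaving out samples were alternatives. Hill curves were fitted in Python 3.11.15 with scipy 1.17.1 to CPM corrected for differentiation batch. The edgeR step was tested on simulated data.

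Groups and replicates were taken from the sample titles, since for 1 replicate the labelled concentrations of the 0 and 0.5 nM samples were the other way round from their titles. The time-course columns of 1 tagged differentiation name another clone than the titles and were matched by differentiation, treatment and time. Replicates are separate differentiations or clones, and the 7 of the dose series came from 6 differentiations. In the main fit S9CC13_R6 and S9CC47_R6 therefore shared a batch term and were not paired by clone. Samples of a replicate at 0 and 500 nM deviated together, with a mean correlation of 0.66 (lowest 0.5, highest 0.81) over 129215 REs and 7 pairs, against -0.11 for other pairs, so the number pairs the samples.

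For each locus the named REs were its most accessible promoter RE, within 1000 bp of a start, and among the REs that passed at 500 nM the 2 with the largest decreases and the 1 with the largest increase, along with any RE that passed at 1.6 nM. Others are said to be chosen after their values were seen. The members and gene lists were chosen with earlier results of these data known. Intervals of the counts are not given, and depth limits the REs with fewest counts, the lowest member median being 30 counts per sample.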

Additional observations from a re-analysis of the deposited data

Results flagged for a closer look

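Of 72 groups of 7 samples in which the highest and lowest values of 36 REs were checked for a gap, 5 had a sample set apart, and chance sets apart about 1 group in 20. BMP7 +21.8 and BMP7 +8.3 were highest at 500 nM in S9CC47_R8, at 25.1 and 11.7 CPM, and BMP4 +2.0 was lowest at 0 nM in the same replicate, at 16.5 CPM. The promoter REs GDF6 -0.3 and NOG +0.5 were highest at 500 nM in S9CC13_R10, at 17.1 and 32.2 CPM.

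The change with 500 nM dTAGV-1 differed between SOX9-tagged and WT cells for 35 combinations of RE and time, as tested by an interaction term in edgeR. The values here are the log2 change in SOX9-tagged cells minus that in WT cells. At 48 h the difference was -1.56 for BMP7 +24.8, -1.31 for BMP7 +21.8, -1.67 for BMP7 +8.3, -1.12 for BMP7 -16.6 and 1.23 for BMP7 -42.5. Of the other ligands, it was -3.2 for GDF5 +90.4, 0.922 for BMP2 +88.3, 0.866 for BMP4 +23.4, 0.988 for BMP5 +88.4 and 0.96 for GDF6 -12.5. In the antagonist loci the difference was 1.32 for NOG -23.3, -1.68 for GREM1 -47.8, -0.77 for GREM1 +55.1, 1.04 for BMPER +239.3, -1.14 for CHRD -28.3, -0.599 for CHRD -13.1 and 0.927 for CHRD +1.7.

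At 3 h the difference was -1.44 for BMP7 +24.8, -0.735 for BMP7 +8.3, -0.824 for BMP7 -16.6, -0.892 for BMP5 +6.4, -1.7 for GDF5 +90.4, -1.81 for GREM1 -47.8, -1.23 for GREM1 +55.1, -1.08 for CHRD -28.3 and -0.689 for CHRD -13.1. At 24 h it was -1.59 for BMP7 +24.8, -0.902 for BMP7 +8.3, -1.06 for BMP7 -16.6, -2.57 for GDF5 +90.4, -1.93 for GREM1 -47.8, -1.17 for GREM1 +55.1, -0.697 for BMPER -88.9, -1.38 for CHRD -28.3 and -0.6 for CHRD -13.1. Each WT group held 2 samples, so these differences rest on few WT libraries.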

How the results depend on the processing

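Of 130 alternative values for the counts and the ED50, 97 stayed on their side of the threshold and within 1.5 times of the reported value, and of 432 alternative values for the 36 named REs 399 kept direction and side, 23 kept direction only and 10 changed sign. Without a term for differentiation 28 members passed at 500 nM, 9 at the 16 nM step, 1 (GDF5 +90.4) with 5 nM, 0 after 3 h (12 at an unadjusted p below 0.05 in edgeR) and 1 (GREM1 -47.8) after 24 h. For the genotype difference it was 4 at 48 h (BMP7 +24.8, BMP7 -42.5, GDF5 +90.4 and GREM1 -47.8), and 1 at 3 h and 1 at 24 h, GREM1 -47.8 each time. The replicate block, in which pairing is by clone and differentiation, gave 72 members at 500 nM, then 61 (16 nM), 15 (5 nM) and 1 (1.6 nM), and it changed no call of a named RE at 500 nM, while at 1.6 nM the RE it added was GDF5 +90.4. DESeq2 gave 10 at 3 h, 20 at 24 h and 1 at 1.6 nM. With samples left out in turn the count ran from 51 to 60 at 500 nM, from 9 to 28 at 3 h and from 15 to 45 at 24 h in SOX9-tagged cells, and from 0 to 2 at 3 h and 0 to 4 at 24 h in WT cells. For the genotype difference it ran from 10 to 19 at 48 h, 5 to 12 at 3 h and 6 to 17 at 24 h, and the median ED50 from 14.8 to 19.5% SOX9. Within 50 kb 43 members passed at 500 nM, and 55 with the start of the gene record alone. All these alternative counts stand without the share of all REs in the same fit, so they do not show whether members moved apart from other REs. The changes of sign were all in promoter REs that did not pass. With replicates left out in turn, the log2 fold change ran from -0.08795 to 3.202e-05 at NOG +0.5, from -0.07392 to 0.1012 at GREM1 +1.3, from -0.05273 to 0.1068 at BMPER +0.4 and from -0.04216 to 0.08502 at CHRD -1.1. Without a term for differentiation it was -0.01698 at BMPER +0.4 and -0.01793 at CHRD -1.1. The cause of these changes was not tested. Depth limits the weakest members, and the time course rests on 2 samples per group.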
